A study of Mus musculus with 8 samples.

Results

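Chemokine genes, 10 in number, were followed in liver cells of 8 mice: the CXC genes Cxcl1, Cxcl9, Cxcl10, Cxcl12, Cxcl13 and Cxcl16 and the CC genes Ccl2, Ccl5, Ccl6 and Ccl9. They were taken by symbol from the 25229 genes of the deposited count tables, 10 of 25229, and each had a row in all 8 libraries. The mice were of the C57BL/6 strain and fell into 3 groups by their alleles of Adar (named Adar1 in the labels), which encodes an enzyme that edits double-stranded RNA: 3 Adar1 flox/flox mice, 2 Adar1 wt/flox mice and 3 Adar1 wt/wt mice. Every mouse, the wt/wt ones included, was Ifih1-/- and so lacked MDA5, a cytosolic sensor of double-stranded RNA, and every mouse was Alb-Cre+, carrying a recombinase driven by the albumin promoter, which is active in hepatocytes. Replicates 1, 2 and 3 of each group were 11, 9 and 7 weeks old, and there was no 7-week wt/flox mouse. The study asked what loss of Adar1 does in liver that lacks Ifih1. Cells were released by collagenase perfusion, collected by a slow spin and purified on Percoll, which favours hepatocytes but leaves some other liver cells, and a floxed allele is left intact in cells that do not express the Cre.

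Chemokines are small secreted proteins that bind G protein-coupled receptors on leukocytes and draw them along a gradient. Some are made steadily and place cells in resting tissue, such as Cxcl12, whereas others are induced by NF-kB or by interferons during inflammation, such as Cxcl1 and Cxcl10. In liver they are made by hepatocytes and by non-parenchymal cells, among them Kupffer cells, the resident macrophages, and sinusoidal endothelial cells.

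In GENCODE M21 on GRCm38 all members are protein-coding genes on 3 chromosomes. Cxcl1 lies at chr5:90891241-90893115 (plus strand), Cxcl9 at chr5:92321347-92328079 (minus strand), Cxcl10 at chr5:92346638-92348889 (minus strand) and Cxcl13 at chr5:95956951-95961068 (plus strand). Cxcl12 lies at chr6:117168535-117181367 (plus strand). Cxcl16 lies at chr11:70453983-70459984 (minus strand), Ccl2 at chr11:82035571-82037453 (plus strand), Ccl5 at chr11:83525778-83530518 (minus strand), Ccl9 at chr11:83572919-83578636 (minus strand) and Ccl6 at chr11:83587882-83593087 (minus strand). Ccl6 lies within the noncoding E230016K23Rik and Cxcl16 shares 552 bases with Zmynd15, both on the opposite strand.

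The windows around the start sites of Cxcl1, Cxcl9, Cxcl10 and Cxcl12 are shown because these 4 genes set the steady gene of the family beside 3 inducible ones. Each runs from 250 bases before to 50 bases after the start, 5' to 3' on the gene's strand, in the RefSeq annotation of GRCm38.p6. The windows lie at chr5:90890995-90891294 on the plus strand for Cxcl1, chr5:92328030-92328329 on the minus strand for Cxcl9, chr5:92348840-92349139 on the minus strand for Cxcl10 and chr6:117168285-117168584 on the plus strand for Cxcl12. Capitals mark matches to an NF-kB-like motif, GGGA and TTCC with any 2 bases between them, and to an ISRE-like motif of the kind bound by interferon-activated factors, GAAA and GAAA with any 2 bases between them, both searched on both strands.
Cxcl1: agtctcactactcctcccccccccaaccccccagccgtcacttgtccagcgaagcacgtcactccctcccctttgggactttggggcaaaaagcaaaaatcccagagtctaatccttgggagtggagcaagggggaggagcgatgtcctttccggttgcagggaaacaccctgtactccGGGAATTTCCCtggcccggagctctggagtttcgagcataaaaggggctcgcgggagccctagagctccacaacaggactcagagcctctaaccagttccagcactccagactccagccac
Cxcl9: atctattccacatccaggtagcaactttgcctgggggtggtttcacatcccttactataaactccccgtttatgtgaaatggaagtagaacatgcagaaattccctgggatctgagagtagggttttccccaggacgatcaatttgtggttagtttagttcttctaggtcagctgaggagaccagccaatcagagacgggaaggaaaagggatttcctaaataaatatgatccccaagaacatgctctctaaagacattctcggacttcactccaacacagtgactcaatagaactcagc
Cxcl10: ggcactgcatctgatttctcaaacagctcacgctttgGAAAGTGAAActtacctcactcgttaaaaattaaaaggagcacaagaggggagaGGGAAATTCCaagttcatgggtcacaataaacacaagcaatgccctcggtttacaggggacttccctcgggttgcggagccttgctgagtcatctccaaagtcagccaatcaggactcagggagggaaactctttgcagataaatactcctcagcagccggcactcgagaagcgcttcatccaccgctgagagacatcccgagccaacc
Cxcl12: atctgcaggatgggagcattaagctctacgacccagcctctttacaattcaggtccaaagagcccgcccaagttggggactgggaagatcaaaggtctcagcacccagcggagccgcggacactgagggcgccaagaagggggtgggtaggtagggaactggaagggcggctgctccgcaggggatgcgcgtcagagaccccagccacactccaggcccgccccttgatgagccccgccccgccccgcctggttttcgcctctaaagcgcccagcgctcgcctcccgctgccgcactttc

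In Cxcl1 the capitals are 2 overlapping NF-kB-like matches on opposite strands, which together span 71 to 61 bases before the start. In Cxcl10 the ISRE-like match lies 213 to 204 bases before the start and the NF-kB-like match 159 to 150 bases before it. Neither motif was found in the windows of Cxcl9 and Cxcl12, nor in those of Cxcl13, Ccl6 and Ccl9, the other members with a RefSeq window (7 of 10 members matched). Over all 32851 windows of this length, 1.47% held the NF-kB-like motif and 3.44% the ISRE-like motif. The share of G and C was 58.7% for Cxcl1, 44.3% for Cxcl9, 50.3% for Cxcl10 and 64.7% for Cxcl12, against a median of 52.7% over all windows. A match is a stretch of letters and was not tested for binding. Windows for Ccl2, Ccl5 and Cxcl16 were not used here.

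Sense gene reads ranged from 98337152 to 132303735 in flox/flox, 75875711 to 96405090 in wt/flox and 82967317 to 103970706 in wt/wt libraries. Adar stood at 49.4, 35.9 and 42.1 CPM in flox/flox, 22.0 and 31.8 CPM in wt/flox and 28.1, 30.0 and 53.6 CPM in wt/wt libraries (CPM, counts scaled to a common library size by TMM) and did not pass between flox/flox and wt/wt (log2 fold change 0.19, adjusted p = 0.626 by edgeR). Reads over the floxed exons were not analysed here, and this level therefore checks no deletion. Ifih1 had 0 to 4 reads in any library. Hepatocyte markers were present throughout, their 12 genes summing to 163200 to 242000 CPM in flox/flox, 158200 to 173800 CPM in wt/flox and 101900 to 119700 CPM in wt/wt libraries, and 2 of them, Apob and Cyp2e1, rose in flox/flox against wt/wt. With DESeq2 6 rose, with limma-voom 5, without flox/flox 1 there were 5 that rose and 1 that fell, and without the 7-week wt/wt library 1 rose. The labelled sex was contradicted by Xist and 4 Y-linked genes in 2 libraries, flox/flox 1 and flox/flox 2, and sex was left out of the fit for that reason. The deposited tables mark all flox/flox and wt/flox libraries as a second batch and no wt/wt library, so genotype and that mark cannot be told apart in any comparison with wt/wt. In the sense counts, reads were given to a gene, to several or to none. Those given to none made up 34.5% to 40.0% in flox/flox, 31.7% to 37.3% in wt/flox and 22.2% to 28.1% in wt/wt libraries. Where in the genome they lay was not analysed here.

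Levels per length, in CPM per kilobase of exon, put the chemokine genes in a steep order. Cxcl12 had a median of 32.7 CPM per kilobase over the 8 libraries and Ccl9 a median of 22.2. Cxcl1 followed at 5.64, Cxcl9 at 1.92, Cxcl10 at 1.09, Cxcl16 at 0.536 and Ccl6 at 0.462 CPM per kilobase. Ccl5 (0.126), Cxcl13 (0.112) and Ccl2 (0.0977 CPM per kilobase) stood lowest. Of the neighbours in this order, the ranges over libraries were apart for Ccl9 and Cxcl1 alone. All other neighbouring pairs overlapped in these ranges. Within every library, however, Cxcl1 stood above Cxcl9, Cxcl9 above Cxcl10 and Ccl6 above Ccl5. The remaining overlapping pairs changed places between libraries. Cxcl12 and Ccl9 together made up 91.7% to 97.0% of the members' summed CPM in flox/flox, 94.5% to 96.1% in wt/flox and 88.9% to 96.2% in wt/wt libraries.

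**Figure D1:**
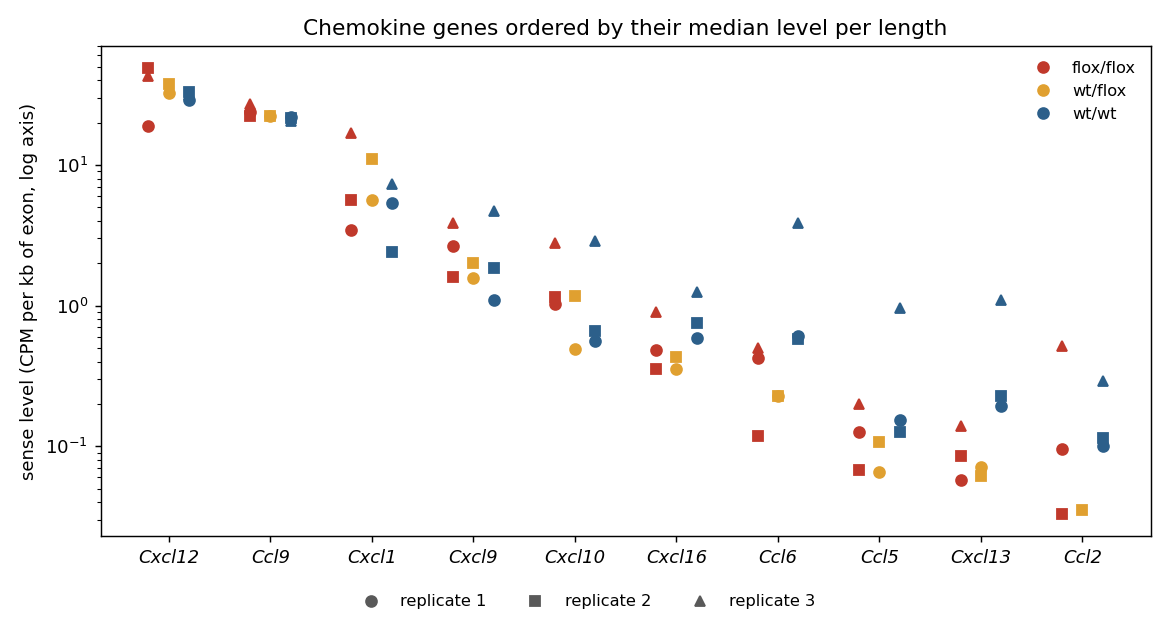
Sense level of each chemokine gene in CPM per kilobase of exon on a log axis, one point per library, coloured by genotype and shaped by replicate number, with genes ordered by their median. Cxcl12 and Ccl9 lie above the other 8 genes in every library, and the 0 reads of Ccl2 in wt/flox 1 cannot be drawn on this axis.

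In the comparison of flox/flox with wt/wt, which asks what the loss of both intact Adar1 alleles does on this background, 1 of the 10 chemokine genes fell and none rose (edgeR quasi-likelihood F test, adjusted p under 0.05 over all 14728 genes tested). That gene was Cxcl13. Of all genes tested 29.9% were called, 15.1% higher and 14.7% lower. With 10 members, a count of 1 is too small to be set apart from these shares. The groups' libraries did not overlap for 3 members, Ccl9 higher in flox/flox and Ccl6 and Cxcl13 lower, whereas 45.0% of all genes did not overlap, 23.0% higher and 22.0% lower. The members' median log2 fold change was 0.14 and that of all genes 0.02. DESeq2 called 2 members, Cxcl13 and Ccl6, and limma-voom called none.

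**Figure D2:**
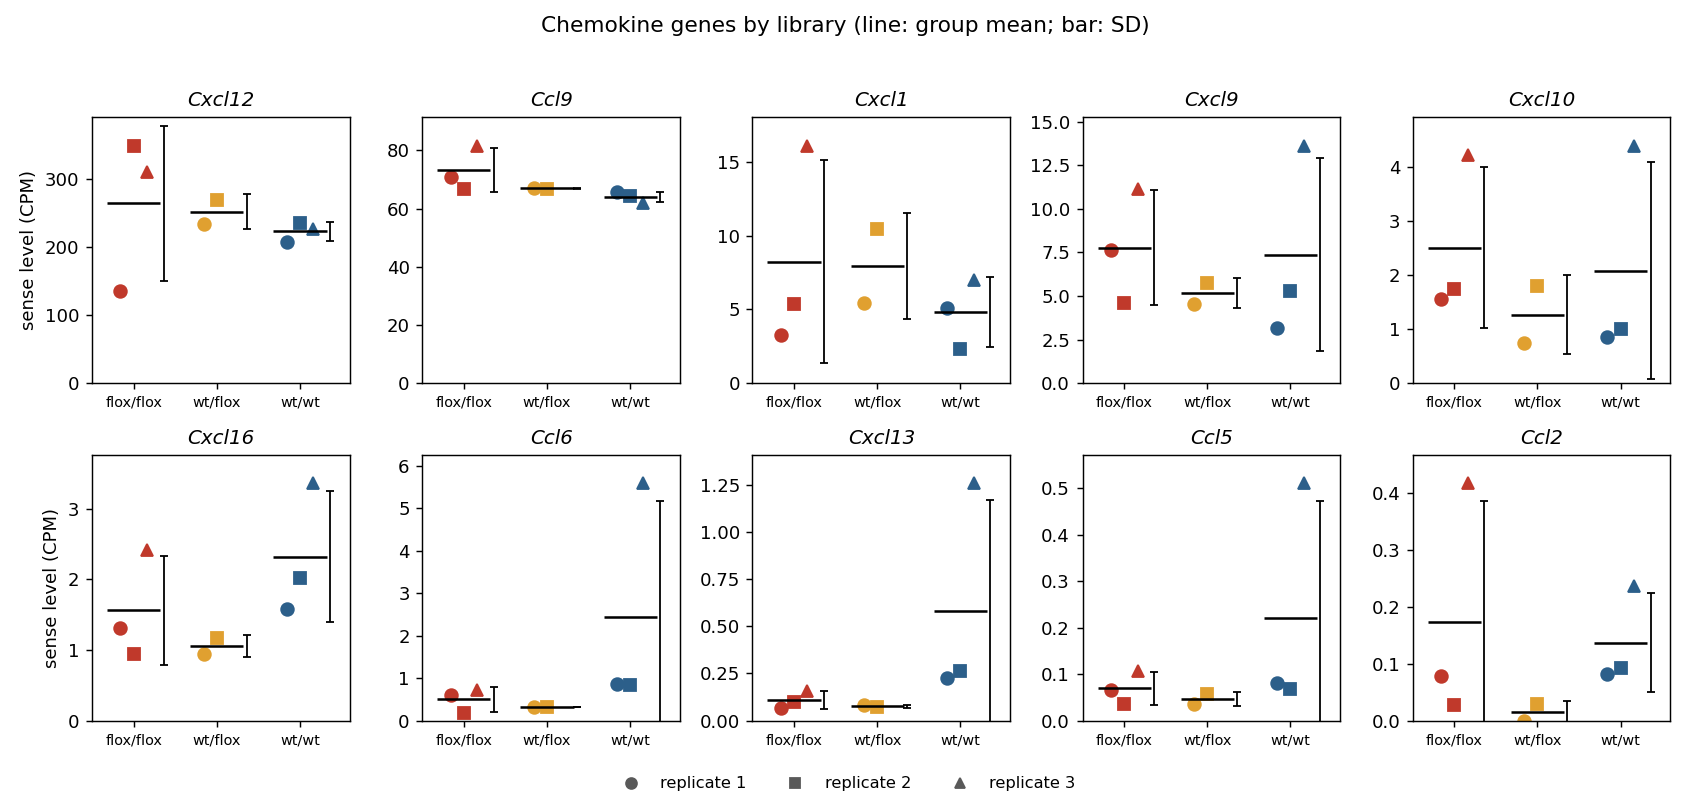
Sense level (CPM, linear axis from 0) of each chemokine gene by genotype, with 1 point per library shaped by replicate number, a line at the group mean and a bar for the SD (n = 3, 2 and 3), not drawn below 0. The replicate 3 points, from 7-week mice, are the highest of their group in most panels, and Ccl9 is nearly level across all groups.

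Among the steadily made genes, Cxcl12 encodes the ligand of CXCR4, which retains haematopoietic and other cells in tissue. It stood at 134.8, 348.8 and 309.4 CPM in flox/flox, 233.2 and 269.6 CPM in wt/flox and 207.2, 235.0 and 226.0 CPM in wt/wt libraries. The flox/flox libraries held both the lowest and the 2 highest values, around a narrow wt/wt group. The fitted log2 fold change against wt/wt was 0.25 ± 0.31 (SE, adjusted p = 0.574 by edgeR). Without flox/flox 1, one of the libraries whose labelled sex is contradicted, it was 0.56 with an adjusted p of 0.0202 by edgeR. Without both libraries of contradicted sex it was 0.47, with flox/flox then its 7-week library alone. With all libraries kept, the log2 fold change was -0.01 with a trend of fold change with exon length removed (adjusted p = 0.985 by edgeR). With all kept and sex by transcripts as a term it was -0.09 (adjusted p = 0.838 by edgeR). The spread of Cxcl12 over libraries was a coefficient of variation of 26.5%, close to the median of 27.7% over all genes tested.

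Ccl9, a mouse CC chemokine that binds CCR1, was the steadiest member. Its level was 70.9, 66.9 and 81.6 CPM in flox/flox, 67.0 and 66.8 CPM in wt/flox and 65.6, 64.5 and 62.0 CPM in wt/wt libraries. All flox/flox libraries lay above all wt/wt libraries, and both wt/flox libraries did so too, by small margins. Against wt/wt, flox/flox had a log2 fold change of 0.19 ± 0.10 (SE, adjusted p = 0.199 by edgeR), which did not pass. Its coefficient of variation over the 8 libraries was 8.8%, against a median of 21.4% for the 1267 genes with a mean of 50 to 100 CPM, of which 6.0% varied less.

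Cxcl1 encodes an attractant of neutrophils through CXCR2. It stood at 3.28, 5.34 and 16.1 CPM in flox/flox, 5.41 and 10.5 CPM in wt/flox and 5.10, 2.30 and 7.03 CPM in wt/wt libraries. The groups overlapped, and the highest flox/flox library was the 7-week one, as in wt/wt. In flox/flox against wt/wt the log2 fold change was 0.78 ± 0.63 (SE, adjusted p = 0.38 by edgeR).

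Cxcl9 and Cxcl10 encode ligands of CXCR3, the receptor of activated T and NK cells, and are known as interferon-induced genes. Cxcl9 stood at 7.63, 4.58 and 11.1 CPM in flox/flox, 4.55 and 5.77 CPM in wt/flox and 3.18, 5.30 and 13.6 CPM in wt/wt libraries. Cxcl10 stood at 1.55, 1.75 and 4.23 CPM in flox/flox, 0.749 and 1.79 CPM in wt/flox and 0.853, 1.01 and 4.40 CPM in wt/wt libraries. For both genes the 7-week library was the highest of its group, in flox/flox as in wt/wt, and the groups overlapped. The log2 fold change of flox/flox against wt/wt was 0.08 ± 0.53 for Cxcl9 and 0.27 ± 0.71 for Cxcl10 (SE, adjusted p = 0.923 and 0.797 by edgeR). Cxcl10 lies wholly within Art3 on the other strand, and the tables separate reads by strand.

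Cxcl16 encodes a membrane-bound chemokine that can be shed and binds CXCR6, a receptor of liver-homing T and NKT cells. Its level was 1.31, 0.947 and 2.42 CPM in flox/flox, 0.948 and 1.17 CPM in wt/flox and 1.58, 2.01 and 3.36 CPM in wt/wt libraries. The flox/flox range overlapped wt/wt through its 7-week library, whereas both wt/flox libraries lay below all wt/wt libraries. Its log2 fold change in flox/flox against wt/wt was -0.57 ± 0.41 (SE, adjusted p = 0.327 by edgeR).

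Ccl6, a mouse CC chemokine of myeloid cells that binds CCR1, stood at 0.611, 0.170 and 0.721 CPM in flox/flox, 0.328 and 0.327 CPM in wt/flox and 0.873, 0.829 and 5.60 CPM in wt/wt libraries. All libraries with a floxed allele lay below all wt/wt libraries, and the 7-week wt/wt library was far above the other 2 of its group. Flox/flox differed from wt/wt by a log2 fold change of -2.28 ± 0.85 (SE, adjusted p = 0.0787 by edgeR), which did not pass. Ccl6 was called by DESeq2 (adjusted p = 0.00884) and with labelled sex as a term (adjusted p = 0.00441 by edgeR). Those labels are contradicted in flox/flox 1 and flox/flox 2. It was not called by limma-voom (adjusted p = 0.162) or with sex by transcripts as a term (-2.12, adjusted p = 0.0744 by edgeR). Without the 7-week wt/wt library the log2 fold change was -0.76 (adjusted p = 0.345 by edgeR).

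Cxcl13 encodes the ligand of CXCR5, which draws B cells into lymphoid follicles, and fell in flox/flox. It had 6, 11 and 21 reads in flox/flox, 7 and 5 reads in wt/flox and 22, 31 and 138 reads in wt/wt libraries. These amount to 0.0666, 0.0983 and 0.159 CPM in flox/flox, 0.0819 and 0.0710 CPM in wt/flox and 0.223, 0.262 and 1.26 CPM in wt/wt libraries. No flox/flox library reached the lowest wt/wt library, and the 7-week wt/wt library held 138 of the 191 wt/wt reads. The log2 fold change of flox/flox against wt/wt was -2.40 ± 0.75 (SE), a 5.27-fold lower level with an adjusted p of 0.0455 by edgeR. Without the 7-week wt/wt library it was -1.14 (adjusted p = 0.13 by edgeR), and with a trend of fold change with exon length removed it was -2.07 (adjusted p = 0.0829 by edgeR). Without the libraries of contradicted sex, flox/flox 1 and flox/flox 2, it was -1.87 (adjusted p = 0.322 by edgeR), with flox/flox then a single library that is assumed to vary like the other groups. It was past the threshold in 10 of the 21 alternatives that gave a value, negative in all 21, with adjusted p between 0.0074 and 0.322.

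Ccl5 and Ccl2, which attract T cells and monocytes, had few reads. Ccl5 had 6, 4 and 14 reads in flox/flox, 3 and 4 reads in wt/flox and 8, 8 and 56 reads in wt/wt libraries, and reads on its opposite strand numbered 16, 15 and 5 in flox/flox, 4 and 7 in wt/flox and 3, 5 and 9 in wt/wt libraries. Opposite-strand reads were thus 38.3% of its total, against 7.37% over all genes. The log2 fold change of Ccl5 in flox/flox against wt/wt was -1.63 ± 0.87 (SE, adjusted p = 0.191 by edgeR). Ccl2 had 7, 3 and 55 reads in flox/flox, 0 and 2 reads in wt/flox and 8, 11 and 26 reads in wt/wt libraries. Most Ccl2 reads of flox/flox came from the 7-week library, and a count of 0 allows up to 3 reads. Its log2 fold change in flox/flox against wt/wt was 0.36 ± 0.99 (SE, adjusted p = 0.802 by edgeR).

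**Figure D3:**
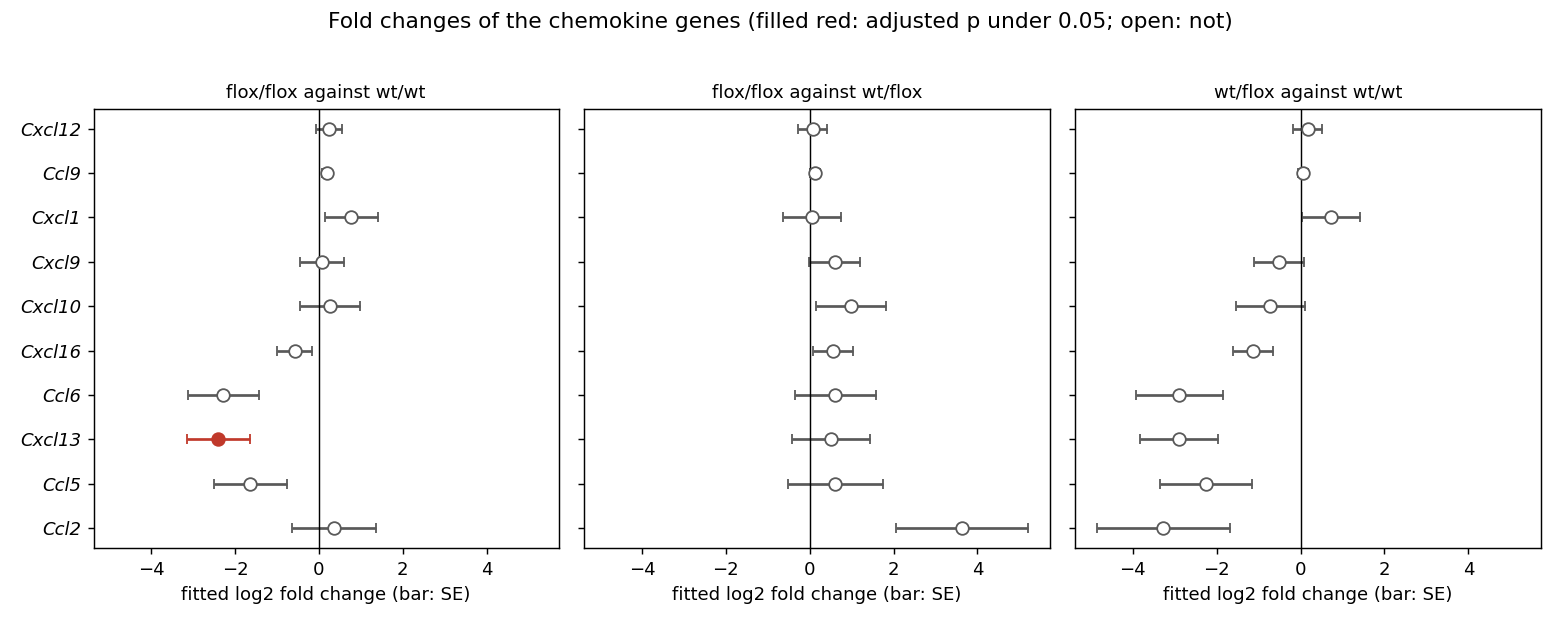
Fitted log2 fold change of each chemokine gene (horizontal axis, bar: SE) in the 3 comparisons of genotypes, filled where the adjusted p was under 0.05 by edgeR. Cxcl13 in flox/flox against wt/wt is the one filled point, and all 10 points lie above 0 in flox/flox against wt/flox.

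Flox/flox against wt/flox compares mice that share the second batch mark and differ, by their labels, in whether an intact Adar1 allele remained. No chemokine gene was called, by edgeR, DESeq2 or limma-voom, and none had an unadjusted p under 0.05. Of all genes edgeR called 0.0%, with 1240 genes at an unadjusted p under 0.05, DESeq2 called 75 and limma-voom none. No member's groups were apart, whereas 27.3% of all genes did not overlap. All 10 members had a fitted log2 fold change above 0, with a median of 0.58 against 0.04 for all genes. So did all 12 Kupffer cell markers, with a median of 0.91, and all 12 monocyte and macrophage markers, with a median of 0.78, none of them called by edgeR, DESeq2 or limma-voom or at an unadjusted p under 0.05, and their part in the members' values was not tested. The values ran from 0.06 for Cxcl1 to 0.99 for Cxcl10, with Ccl2 beyond them at 3.63 ± 1.58 (SE, adjusted p = 0.558 by edgeR). The Ccl2 value rests on 65 reads in flox/flox and 2 in wt/flox, a pooled ratio of 15.2 with an exact 95% interval of 4.04 to 128 that covers counting error only. Without the 7-week flox/flox library, an age that wt/flox lacks, 9 members were tested, and Cxcl1 (-0.88) and Cxcl12 (-0.06) had a log2 fold change below 0. Limma-voom also put Cxcl1 (-0.08) and Cxcl12 (-0.05) below 0. With labelled sex as a term 6 members were below 0 (Cxcl1, Cxcl9, Cxcl13, Cxcl16, Ccl5 and Ccl6), and with sex by transcripts 6 were (Cxcl1, Cxcl10, Cxcl12, Cxcl13, Ccl5 and Ccl6). The shared sign thus did not hold across these alternatives, with or without a sex term.

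Wt/flox against wt/wt asks what the loss of 1 intact Adar1 allele does, and shares its wt/wt libraries with the first comparison and its wt/flox libraries with the second. None of the 10 members was called by edgeR, against 12.5% of all genes, 969 (6.58%) higher and 868 (5.89%) lower (835 higher and 1305 lower with upper-quartile size factors). At an unadjusted p under 0.05 there were 3 members, Cxcl13, Cxcl16 and Ccl6, all lower, of which DESeq2 called Cxcl13 and Ccl6 and limma-voom none. The libraries did not overlap for 1 member that was higher, Ccl9, and 5 that were lower, Cxcl13, Cxcl16, Ccl2, Ccl5 and Ccl6, beside 25.8% and 29.3% of all genes. The log2 fold changes were -2.90 ± 0.94 for Cxcl13, -2.89 ± 1.04 for Ccl6 and -1.13 ± 0.48 for Cxcl16 (SE, adjusted p = 0.0785, 0.104 and 0.152 by edgeR). The members' median was -0.93 and that of all genes -0.06.

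The 7-week libraries, each from a single mouse, stood out for the chemokine genes, though not for these alone. Sums of the Kupffer cell markers, the monocyte and macrophage markers and the chemokine receptors were also highest there, in flox/flox and in wt/wt. So were those of the sinusoidal endothelial, T and NK cell, neutrophil and dendritic cell markers and of the NF-kB targets. The further chemokine ligands, the interferon-gamma axis and the hepatocyte, B cell, stellate and cholangiocyte markers did not have their highest sum there in both groups. In flox/flox the 7-week library was the highest of its group for 9 of 10 members, against 34.6% of all genes. In wt/wt it was the highest for 8 of 10 members, against 35.3% of all genes, and 8 members had it highest in both groups, against 16.9% of all genes. The exceptions were Cxcl12, highest in the 9-week library of both groups, and Ccl9, lowest in the 7-week wt/wt library. Age moves with the replicate number in every group. Both 7-week mice were labelled female, as was the 11-week flox/flox mouse, and no wt/flox mouse was. By Xist and Y-linked reads the 11-week flox/flox mouse was male and the 9-week one female, and all other labels held. The part of age and sex in the levels was not tested. Without the 7-week wt/wt library, 9 members were tested in flox/flox against wt/wt and none passed, and the log2 fold changes were 1.16 for Cxcl1, 0.88 for Cxcl9, 1.43 for Cxcl10 and 1.02 for Ccl2 (adjusted p = 0.264, 0.141, 0.102 and 0.539 by edgeR). Without flox/flox 1 and flox/flox 2, the libraries of contradicted sex, none passed either, with 1.74 for Cxcl1, 1.01 for Cxcl10 and -1.76 for Ccl6 (adjusted p = 0.0889, 0.502 and 0.372 by edgeR), and flox/flox is then its 7-week library alone.

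Markers of non-parenchymal cells moved with several members. The 12 Kupffer cell markers summed to 53.3, 35.0 and 123.2 CPM in flox/flox, 35.1 and 36.6 CPM in wt/flox and 63.5, 62.8 and 268.7 CPM in wt/wt libraries. Like Ccl6, Cxcl13 and Cxcl16, they were highest in the 7-week wt/wt library and lower in both wt/flox libraries than in any wt/wt library. None of the 12 was at 0, and none was called in flox/flox against wt/wt by edgeR (2 at an unadjusted p under 0.05) or limma-voom, whereas DESeq2 called 2 lower. With labelled sex as a term, under which Ccl6 was also called, edgeR called 8 Kupffer cell markers and 4 monocyte and macrophage markers lower. With sex by transcripts as a term it called 2 of each list lower, and Ccl6 was not called. In the main fit all 12 Kupffer cell markers had a log2 fold change below 0, with a median of -1.07. In bulk RNA fewer cells of a type and less RNA per cell cannot be told apart, and the part of the markers in these results was not tested.

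**Figure D4:**
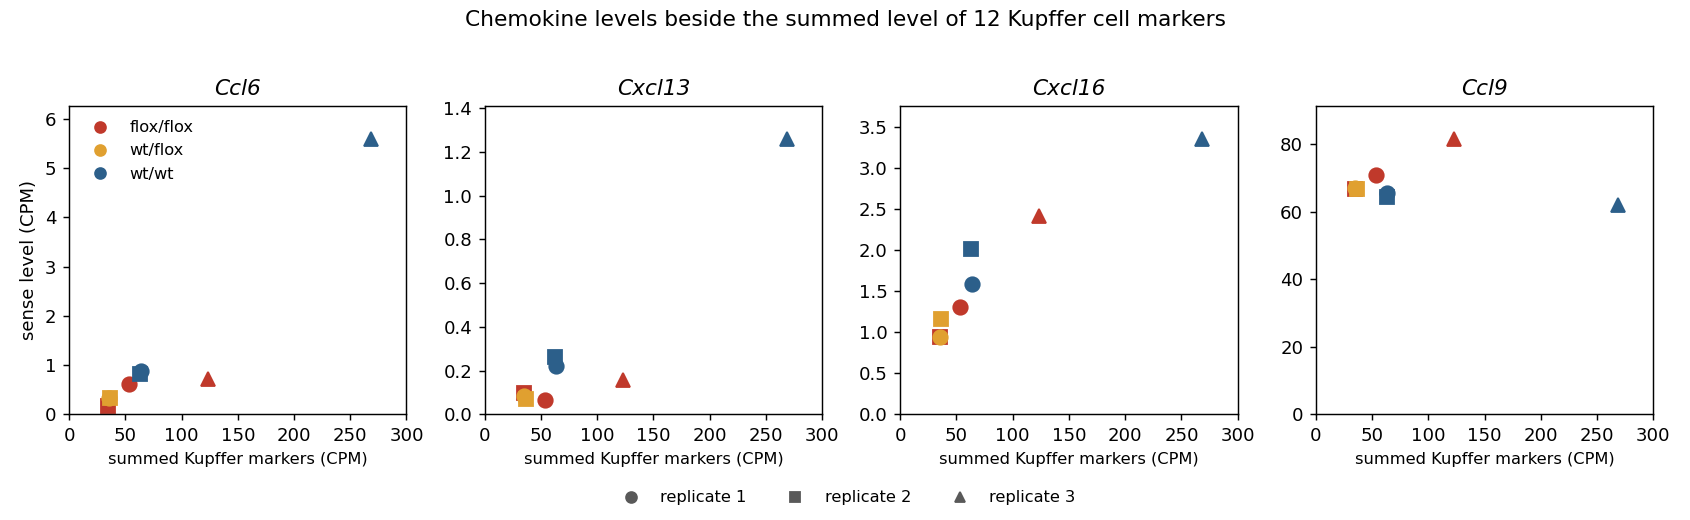
Sense level (CPM) of Ccl6, Cxcl13, Cxcl16 and Ccl9 against the summed level (CPM) of 12 Kupffer cell markers, one point per library, coloured by genotype and shaped by replicate number. The 7-week wt/wt library, at 268.7 CPM of markers, is the highest for Ccl6, Cxcl13 and Cxcl16 and the lowest for Ccl9.

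As a share of that Kupffer marker sum, Ccl6 came to 1.15%, 0.485% and 0.585% in flox/flox, 0.932% and 0.894% in wt/flox and 1.37%, 1.32% and 2.08% in wt/wt libraries. Cxcl13 came to 0.125%, 0.281% and 0.129% of it in flox/flox, 0.233% and 0.194% in wt/flox and 0.351%, 0.417% and 0.469% in wt/wt libraries. These shares were lower in all libraries with a floxed allele than in any wt/wt library, with Cxcl13 at 5 to 21 reads in the libraries with a floxed allele. All of those libraries also bear the second batch mark, which cannot be told apart from genotype here. By CPM, 22.0% of all genes lay wholly below wt/wt in flox/flox and 29.3% did so in wt/flox. Cxcl16 shares overlapped, at 2.46%, 2.71% and 1.97% in flox/flox, 2.70% and 3.19% in wt/flox and 2.49%, 3.20% and 1.25% in wt/wt libraries. The shares carry no test, and the part of Kupffer cell content in these levels was not tested.

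Markers of other blood and endothelial cells also reached their highest sums in wt/wt libraries. The 12 monocyte and macrophage markers summed to 7.42 to 19.7 CPM in flox/flox, 7.08 to 8.28 CPM in wt/flox and 13.3 to 49.8 CPM in wt/wt libraries, and in flox/flox against wt/wt none was called by edgeR (2 at an unadjusted p under 0.05) or limma-voom and 2 by DESeq2. Of the 12 sinusoidal endothelial markers 7 fell in flox/flox and 6 in wt/flox, both against wt/wt, and they summed to 91.2 to 188.3 CPM in flox/flox, 102.2 to 116.2 CPM in wt/flox and 202.9 to 321.6 CPM in wt/wt libraries. Without the 7-week wt/wt library 3 endothelial markers fell in flox/flox and 1 in wt/flox, without flox/flox 1 there were 4 in flox/flox, and with labelled sex as a term 2 in wt/flox. DESeq2 called 9 lower in flox/flox and 10 in wt/flox. T and NK cell markers summed to 0.563 to 1.48 CPM in flox/flox, 1.14 to 1.29 CPM in wt/flox and 1.96 to 3.48 CPM in wt/wt libraries, with 11 of 12 listed genes in the tables and Cd4, the helper T cell co-receptor, the one that fell in flox/flox. Neutrophil markers summed to at most 1.90 CPM in flox/flox, 1.21 CPM in wt/flox and 12.6 CPM in wt/wt libraries. Of their 6 tested genes, S100a9, a calcium-binding protein of neutrophils, fell in flox/flox (adjusted p = 0.0496 by edgeR), at 0.0666 to 0.174 CPM in flox/flox against 0.194, 0.254 and 3.62 CPM in wt/wt libraries. No neutrophil marker fell with DESeq2, with limma-voom or without flox/flox 1, and without the 7-week wt/wt library none fell and 1 rose. Endothelial Ehd3, a membrane-trafficking protein, averaged 11.3 CPM in flox/flox against 33.7 CPM in wt/wt libraries (log2 fold change -1.57 ± 0.21, SE, n = 3 each, adjusted p = 0.00256 by edgeR). None of the tested markers of B cells (4), dendritic cells (5) and stellate cells (10) was called in flox/flox against wt/wt by edgeR, with 1, 0 and 2 at an unadjusted p under 0.05 and 0, 0 and 1 called by DESeq2, and of 6 tested cholangiocyte markers Pkhd1 rose and Sox9 fell. With either sex term no cholangiocyte marker fell.

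NF-kB and interferon-gamma induce several of these chemokines. In flox/flox against wt/wt, 1 of 14 tested NF-kB target genes rose, Nfkbiz, a nuclear cofactor of NF-kB, at 19.7 ± 4.94 CPM in flox/flox against 8.56 ± 3.87 CPM in wt/wt libraries (SD, n = 3 each, adjusted p = 0.0321 by edgeR). Of 13 tested genes of the interferon-gamma axis 1 rose, Ifngr1, a chain of its receptor, at 18.3 ± 1.78 CPM in flox/flox against 11.3 ± 1.47 CPM in wt/wt libraries (SD, n = 3 each, adjusted p = 0.00851 by edgeR). In wt/flox, which bears the same batch mark as flox/flox, Ifngr1 stood at 16.9 ± 1.27 CPM (SD, n = 2). It also passed there against wt/wt (adjusted p = 0.0426 by edgeR). Of all genes tested 15.1% were called higher in flox/flox against wt/wt. Without the 7-week wt/wt library 2 NF-kB targets and 5 genes of the interferon-gamma axis rose, beside 1894 of all 14561 genes tested. With sex by transcripts 1 gene of each list fell. The median log2 fold change was 0.08 for the NF-kB targets and 0.12 for the interferon-gamma axis, against 0.02 for all genes.

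Of 28 further chemokine ligands 8 were tested and none was called by edgeR in any comparison, with 1 at an unadjusted p under 0.05 in flox/flox against wt/wt and 0 in the others, and none was called by DESeq2 or limma-voom. Another 7 had no read in any library, and 4 reached 1 CPM in a library. The most abundant, Ccl27a, stood at 3.75 to 8.46 CPM in flox/flox, 4.33 to 5.27 CPM in wt/flox and 3.63 to 4.59 CPM in wt/wt libraries, and is uncertain because it has near-identical copies. Cxcl14 stood at 0.286 to 2.64 CPM in flox/flox, 2.32 to 3.86 CPM in wt/flox and 0.690 to 3.60 CPM in wt/wt libraries. Cxcl11, named here as the remaining ligand of CXCR3, stood at 1.31, 3.60 and 2.72 CPM in flox/flox, 0.433 and 1.95 CPM in wt/flox and 1.21, 1.47 and 1.20 CPM in wt/wt libraries, with overlapping groups. Ccl25, the ligand of CCR9, stood at 2.56 to 3.59 CPM in flox/flox, 3.36 to 3.42 CPM in wt/flox and 2.05 to 2.74 CPM in wt/wt libraries. Of 23 chemokine receptors 17 were tested and none was called in any comparison by edgeR, DESeq2 or limma-voom, with 0 at an unadjusted p under 0.05 in flox/flox against wt/wt and 1 in each of the other comparisons. The most abundant were the decoy receptors Ackr4, at 3.46 ± 0.765 CPM in flox/flox, 3.23 ± 0.288 CPM in wt/flox and 3.01 ± 0.353 CPM in wt/wt libraries, and Ackr2 (SD, n = 3, 2 and 3).

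The genes whose levels ran closest to each member were taken from the 10783 tested genes with a mean of at least 1 CPM. Closeness was Pearson's r of log2(CPM + 0.5) over the same 8 libraries, which also differ in genotype, age, sex, batch mark and depth. Ccl6 ran closest to Cd163 (r = 0.99), Tyrobp (0.97) and Rac2 (0.97), and Cxcl16 to genes that include Nfam1 and C1qa (0.98 each). Cxcl9 ran closest to Ptprc (0.95), the pan-leukocyte antigen CD45, and to Rsad2 and Ifi213 (0.94 each), and Cxcl10 to Trim12a (0.97), Trim34a and Orm3 (0.95 each). Cxcl1 ran closest to Cdca3 (0.91), Gbp11 (0.89) and AW554918 (0.85). Cxcl12 ran closest to Arhgef10l (0.97), Bcor and Arhgap6 (0.96 each), and Ccl9 to Zbtb37 (0.96), Odf2l and Patz1 (0.95 each). Ccl6, Cxcl16, Cxcl9 and Cxcl10, and every gene named beside these members, were highest in the 7-week wt/wt library, and r without that library was not computed. All r values were picked as the highest among many genes and carry no test.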

How the data were processed

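Each library is strand-specific, ribosome-depleted total RNA of liver cells, per the labels' protocols. The authors deposited raw read counts per gene symbol, sense and antisense apart, per the file headers. GRCm38 (mm10) and DESeq2 are named in the submitters' processing notes. Which aligner, counter and annotation were used is not given in the sources used here. Sense counts of 25229 genes were used, and 5 rows without a gene name entered neither library sizes nor tests. Reads aligned to several places, tallied apart by the authors, made up 3.92% to 4.32% in flox/flox, 4.89% to 4.98% in wt/flox and 8.97% to 10.9% in wt/wt libraries.

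All 8 libraries entered a single fit on genotype with edgeR 4.0.16 (R 4.3.3), TMM size factors and filterByExpr, which left 14728 genes. The quasi-likelihood F test was two-sided, with Benjamini-Hochberg adjustment at 0.05. CPM are counts over TMM-adjusted library sizes, and levels per kilobase use merged exons of GENCODE M21. The SE is the fold change over the root of F. The fit was tested on simulated data. The 7 pairs of libraries within a group each differed by more than sampling noise. The labels do not say whether replicates came from separate litters or days, so p-values measure the spread between these libraries.

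The 10 members and the marker and pathway lists were chosen with earlier results of these data known. Named are the members, of each other list up to 4 called genes or 3 of high level, and the 3 genes of highest r for members of at least 1 CPM. Alternatives used RLE or upper-quartile factors, no filter, a mean of at least 1 CPM, DESeq2 1.42.0, limma-voom (limma 3.58.1), sex terms, a replicate block, both strands summed, only the groups compared, and each library left out. Removal of an exon-length trend (lowess) and omission of the libraries of contradicted sex were added after seeing the data. The design text counts 2 flox/flox mice, and all 3 labelled libraries were used. Promoter windows are RefSeq's, on GRCm38.p6. A few genes that the naming rule picked are not reported here.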

Additional observations from a re-analysis of the deposited data

How the results depend on the processing

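Of the 10 chemokine genes, 1 was called in flox/flox against wt/wt. That count was 2 with DESeq2, 3 with labelled sex as a term (Ccl5 and Ccl6 added), and 0 with limma-voom, with a mean of at least 1 CPM (7 members tested), with the exon length trend removed, without the libraries of contradicted sex, and with only the groups compared. With 1 library left out it ranged from 0 to 1: Cxcl13 was called without wt/wt 1, Cxcl12 without flox/flox 1, and no member without any of the other 6 libraries. In wt/flox against wt/wt it was 2 with DESeq2 and 1 with labelled sex as a term, against 0 without them. Among single members and contrasts, the 1 call of the main fit, Cxcl13 in flox/flox against wt/wt, was lost in 11 of 21 alternatives. Calls absent from the main fit were gained 8 times, and none of the called values reversed.

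All genes called in flox/flox against wt/wt numbered 4400, and 2195 to 4722 with 1 library left out (2195 without wt/wt 2 and 2807 without wt/wt 1). Without the libraries of contradicted sex they numbered 2915. In flox/flox against wt/flox DESeq2 called 75 genes. In wt/flox against wt/wt 1837 genes were called, 3284 with DESeq2, 770 with the length trend removed, and 0 to 2525 with 1 library left out (0 without either wt/flox library, which then leaves 1 that is assumed to vary like the other groups, 393 without wt/wt 1, 38 without wt/wt 2 and 1001 without wt/wt 3). The cause was not tested.

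With a replicate block, 2 members were called in flox/flox against wt/wt, Cxcl13 (log2 fold change -2.10, adjusted p = 0.02) and Ccl6 (-1.88, adjusted p = 0.041 by edgeR; 0.129 with sex by transcripts added), and 4794, 0 and 1439 genes in flox/flox against wt/wt, flox/flox against wt/flox and wt/flox against wt/wt. With the block and sex by transcripts together, 1786 and 0 genes were called in flox/flox and in wt/flox, both against wt/wt. In flox/flox against wt/flox the block put 5 members below 0. Deviations of same-numbered libraries correlated between -0.06 and 0.43 across genes, and flox/flox 2 correlated more with wt/wt 3 (0.25) than with wt/wt 2, so the numbers were not taken to pair mice.

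Ccl2, Ccl5 and Cxcl13 rest on few reads, and differences at that depth were not detectable unless large. Groups of 2 and 3 mice, the batch mark shared by genotype, and a length-related trend limit every comparison with wt/wt: the median log2 fold change of flox/flox against wt/wt was -0.34 for genes of 1000 to 2000 exon bases, Cxcl13 among them, and 0.43 for those of at least 8000.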
